A study of Mus musculus with 6 samples.

Results

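Meiosis begins in the fetal mouse ovary, where homologous chromosomes are held together by the synaptonemal complex and sister chromatids by cohesin rings that carry meiosis-specific subunits. The 10 genes described here encode parts of these structures: the transverse filament protein Sycp1, the axis proteins Sycp2 and Sycp3, the central element proteins Syce1, Syce2, Syce3 and Tex12, and the meiotic cohesin subunits Rec8, Stag3 and Smc1b. The synaptonemal complex is taken apart around birth, when oocytes enter the long diplotene arrest, while cohesin that contains Rec8 keeps sister chromatids together until the meiotic divisions. The genes were chosen by symbol, and 9 of the 10 had a row among the 16454 genes of the deposited table. Syce3 had none and counts as not measured.

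Whole ovaries came from CD1 mice that were 21 days old, of generation 3 of lineages named for how their founding dams were treated. In the DEHP lineage those dams had been given the plasticizer di(2-ethylhexyl) phthalate (DEHP) at 20 µg/kg/day, and in the control lineage tocopherol-stripped corn oil as vehicle. Flash-frozen ovaries, 3 per lineage, were made into 1 mRNA library each. Shared litters or founders are not recorded in the labels, so each p-value covers the spread among these 6 ovaries alone.

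Values are log2 CPM, reads per gene scaled to the size of the library, from which the authors had removed a surrogate variable, an estimated nuisance direction across samples. The depth of the libraries is unknown, and 2 to the power of the values summed to between 979868 and 1026735 per ovary. DEHP replicates 1 and 3 stand apart as a pair: their log2 CPM correlated at 0.998, all other pairs at 0.978 to 0.989, and the removed direction weighs most on them (-0.60 and 0.75). SDs are therefore smaller than the spread before removal, and Sycp3 is also given without either ovary. Differences were tested with limma over all 16454 genes with 3 residual degrees of freedom and Benjamini-Hochberg adjustment, and a gene was called at an adjusted p under 0.05. Oocyte markers were measured for 18 of the 19 listed and summed to between 1451 and 1974 CPM in every ovary. In whole ovaries, fewer oocytes and less RNA per oocyte cannot be told apart.

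The stretches before the starts of the 3 SYCP genes are shown because Sycp3 had the largest positive and Sycp1 the largest negative difference among the members, and both carry the same short motif. They come from RefSeq's promoter table for GRCm38.p6 and end where exons annotated in GENCODE begin. RefSeq extends Sycp2 to 178407776, so part of the Sycp2 stretch lies inside the gene as RefSeq draws it. The first is chr10:88459337-88459568 on the plus strand, the second chr3:102936101-102936350 on the minus strand and the third chr2:178407686-178407908 on the minus strand. Capitals mark CACGTG, an E-box bound by factors such as MAX and USF proteins, and TCCCGC or its complement GCGGGA, the core of sites bound by E2F6. MAX and E2F6 are known as parts of a complex that keeps germ cell genes silent in other cells.
Sycp3: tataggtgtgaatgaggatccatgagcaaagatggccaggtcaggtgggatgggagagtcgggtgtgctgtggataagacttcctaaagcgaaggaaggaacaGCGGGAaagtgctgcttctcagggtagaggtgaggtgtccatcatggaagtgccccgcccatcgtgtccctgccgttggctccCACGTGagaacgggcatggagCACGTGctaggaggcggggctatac
Sycp1: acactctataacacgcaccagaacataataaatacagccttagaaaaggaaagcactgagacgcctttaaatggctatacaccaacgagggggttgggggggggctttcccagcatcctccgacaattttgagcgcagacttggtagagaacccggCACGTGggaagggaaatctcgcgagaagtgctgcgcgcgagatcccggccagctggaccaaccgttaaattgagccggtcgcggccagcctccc
Sycp2: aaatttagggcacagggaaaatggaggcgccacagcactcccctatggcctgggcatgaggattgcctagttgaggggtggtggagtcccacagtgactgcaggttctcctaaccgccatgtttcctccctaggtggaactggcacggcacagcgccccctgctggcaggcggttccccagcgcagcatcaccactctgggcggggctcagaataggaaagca

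Motifs were counted on both strands in the 250 bases before each start of RefSeq's promoter table, and the motifs shared 0 bases in every window. Some windows lie partly in annotated exons, among them all 250 bases for Stag3, 143 for 1 window of Syce2 and 129 for Rec8. The CACGTG of Stag3 and Syce2, the TCCCGC of Rec8 and 1 of those of Syce2 lie in such exonic parts. The window of Sycp3 held CACGTG at 2 places and TCCCGC at 1 place, that of Sycp1 held CACGTG at 1 place, and that of Sycp2 held neither. Some genes have more than 1 start, so the 10 genes have 12 windows. CACGTG occurred in 5 of the 12 windows, of Sycp1, Sycp3, Syce2, Tex12 and Stag3, against 6.02% of all 32851 windows in the table and 7.93% of the 15948 windows of measured genes. TCCCGC occurred in 6 of the 12 windows, of Sycp3, Syce2 (both of its windows, which overlap), Tex12, Rec8 and Smc1b, against 16.9% and 27.3%. These matches describe the letters of the windows and do not show that a factor binds there. Both motifs contain CG, and the member windows that hold them have 10 to 26 CG, against a median of 6 over all windows. The shares over all windows were not matched for CG, so the contrast may be one of CG content. Genes with the E-box had differences of both signs between the lineages, as the values below show. DNA methylation was not analysed here.

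Sycp3, which coats the chromosome axes, was the member that differed most between the lineages (Entrez 20962, chromosome 10, 88459569 to 88473236 on the plus strand). Its log2 CPM was 1.39, 1.58 and 1.65 in control replicates 1 to 3 and 2.89, 2.49 and 2.75 in DEHP replicates 1 to 3. Every DEHP-lineage ovary lay above every control ovary, with a gap of 0.84 between the nearest pair on the log2 scale. In CPM, the means were 2.92 ± 0.27 and 6.59 ± 0.90 (SD, n = 3 each). The log2 difference of 1.17 (SE 0.20) corresponds to a 2.25-fold higher level, with a 95% interval of 1.62-fold to 3.13-fold. By limma the unadjusted p was 0.000594, rank 43 of 16454 genes, and the adjusted p was 0.225, so Sycp3 was not called. The authors' deposited table lists a log2 fold change of 1.18, a p-value of 0.00079 and an adjusted p of 0.31. The difference was 1.08 without DEHP replicate 1, 1.15 without DEHP replicate 3 and 1.12 with the 2 averaged, with limma adjusted p of 0.155, 0.203 and 0.324.

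Sycp3 lies wholly within the span of Chpt1, a choline phosphotransferase gene on the opposite strand, and their annotated exons overlap over 660 bases. Of the 31-base words of Sycp3 transcripts, 46.5% occur in Chpt1 transcripts, all in the opposite orientation, and 0% occur in any gene in the same orientation. The library kit marks strand, per the labels' protocols, but whether the counting used it is not known here, so reads from the shared bases may not be told apart. Chpt1 was at 6.19, 6.07 and 5.997 log2 CPM in the control ovaries and 5.94, 6.26 and 6.05 in the DEHP-lineage ovaries. Its lineages overlapped, with a difference of -0.003 (SE 0.10), whose sign turned under several alternative settings. Within the DEHP lineage, replicate 2 had the highest Chpt1 and the lowest Sycp3. The removed direction weighs most on DEHP replicates 1 and 3 and limits the orders these ovaries can take, so this is no result about shared reads.

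**Figure D1:**
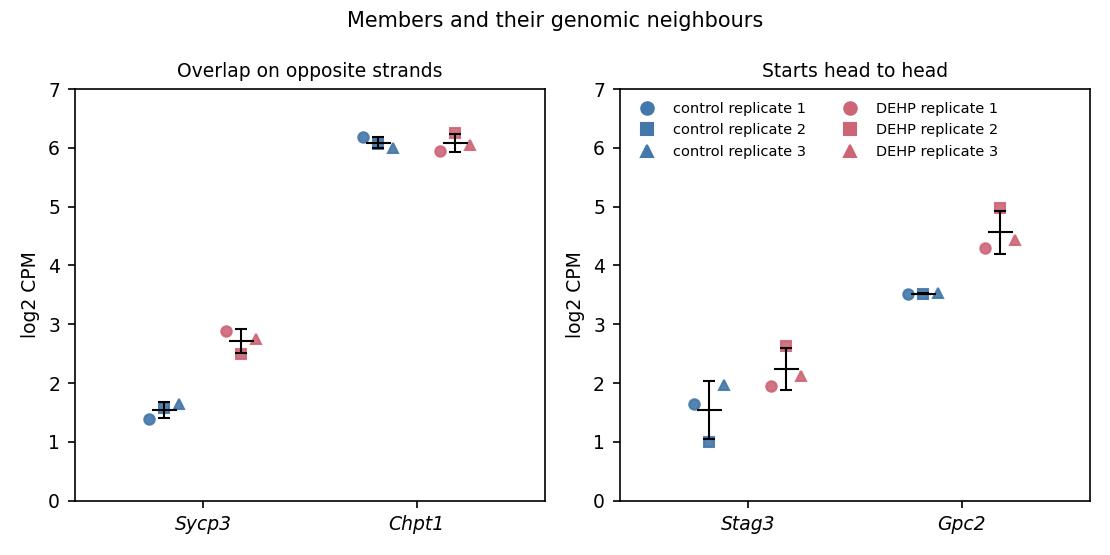
Log2 CPM (y axis) of Sycp3 and Chpt1, which overlap on opposite strands, and of Stag3 and Gpc2, whose starts lie head to head. Points are ovaries, coloured by lineage and shaped by replicate, and bars are means ± SD (n = 3); Sycp3 and Gpc2 separate the lineages, with gaps on the log2 scale of 0.84 for Sycp3, while Chpt1 and Stag3 overlap.

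Sycp2, the partner of Sycp3 on the chromosome axis, lies on chromosome 2 (178345293 to 178407685). It was at 1.75, 1.84 and 1.79 log2 CPM in the control ovaries and at 2.28, 1.87 and 2.18 in the DEHP-lineage ovaries. The lineages did not overlap, but DEHP replicate 2 lay only 0.030 above the highest control ovary. The difference was 0.32 (95% interval -0.16 to 0.80; limma adjusted p 0.694). In folds, that interval runs from 0.893 to 1.74.

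Sycp1, the transverse filament that joins the paired axes, lies on chromosome 3 (102818499 to 102936100). It was at 1.91, 1.17 and 0.66 log2 CPM in control replicates 1 to 3 and at 0.64, 0.53 and 0.87 in DEHP replicates 1 to 3. The control ovaries spread over 1.25 on the log2 scale and the DEHP-lineage ovaries over 0.34, and DEHP replicate 3 lay above control replicate 3. The difference of -0.57 (95% interval -1.41 to 0.27; limma adjusted p 0.688) was -0.24 without control replicate 1. Of the 31-base words of Sycp1, 15.6% also occur in other genes, most of them in its pseudogene Sycp1-ps1, so reads from those stretches may be shared.

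**Figure D2:**
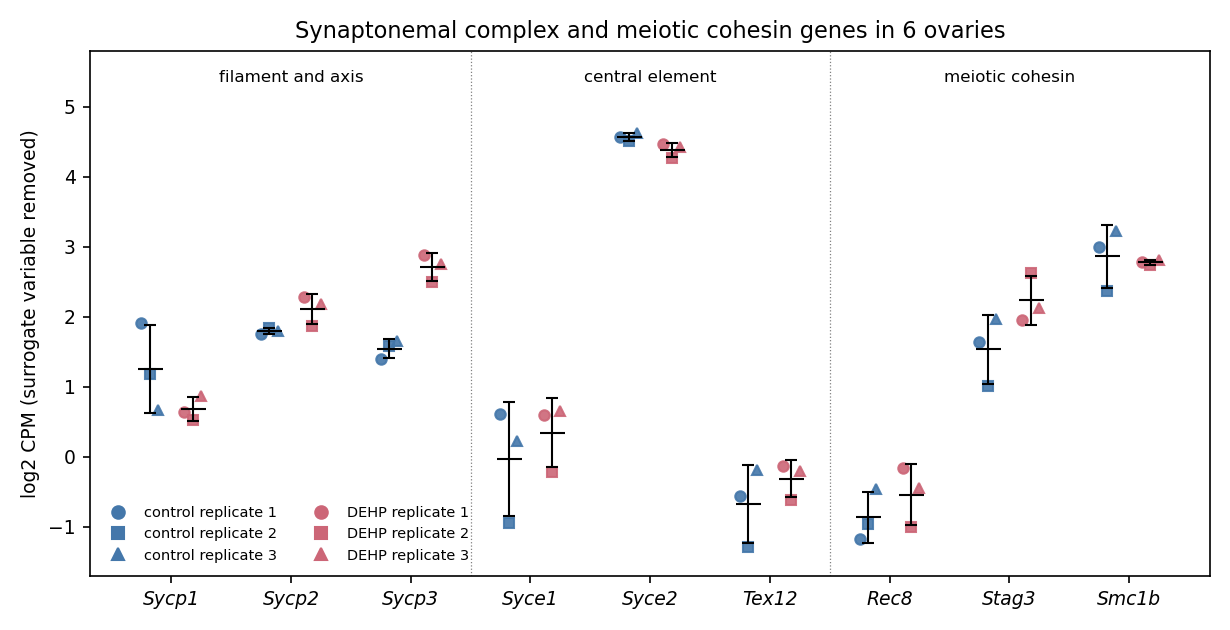
Log2 CPM (y axis) of the 9 measured members (x axis), grouped by role. Points are single ovaries, blue for the control lineage and red for the DEHP lineage, with shapes for replicates, and bars are means ± SD (n = 3 each); Syce2 is highest in every ovary, and the 2 lineages are farthest apart for Sycp3.

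The central element, which lies midway between the paired axes, had members of very different level, also per length of transcript. Syce2 was at 4.57, 4.51 and 4.62 log2 CPM in the control ovaries and at 4.46, 4.26 and 4.42 in the DEHP-lineage ovaries. All 3 DEHP-lineage ovaries lay below the control ovaries, with a gap of 0.053 and a difference of -0.19 (95% interval -0.43 to 0.06; limma adjusted p 0.652). The interval runs from 0.741-fold to 1.04-fold, the narrowest among the members. Syce2 overlaps the 3' part of Gcdh, a lysine breakdown gene on the opposite strand, with 0 shared exonic bases, and the difference of Gcdh was -0.07 (SE 0.09).

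Syce1 and Tex12 were low and variable. Syce1 was at 0.61, -0.95 and 0.22 log2 CPM in the control ovaries and at 0.59, -0.22 and 0.66 in the DEHP-lineage ovaries. Tex12, which binds Syce2, was at -0.57, -1.29 and -0.19 in the control ovaries and at -0.13, -0.62 and -0.20 in the DEHP-lineage ovaries. In both genes replicate 2 was the lowest ovary of each lineage, and the lineages overlapped. In the DEHP lineage, the removed direction limits the orders that the ovaries can take. The differences were 0.38 for Syce1 (95% interval -0.75 to 1.52) and 0.37 for Tex12 (-0.57 to 1.31). Their limma adjusted p values were 0.85 and 0.821. Single ovaries carried much of both: without control replicate 2 the difference was 0.063 for Tex12 and -0.072 for Syce1, and the highest values with 1 ovary left out were 0.61 (Tex12, without control replicate 3) and 0.71 (Syce1, without control replicate 1). Tex12 lies wholly within the span of Il18, a cytokine gene on the opposite strand, with 0 shared exonic bases, and the difference of Il18 was 0.33 (SE 0.40).

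**Figure D3:**
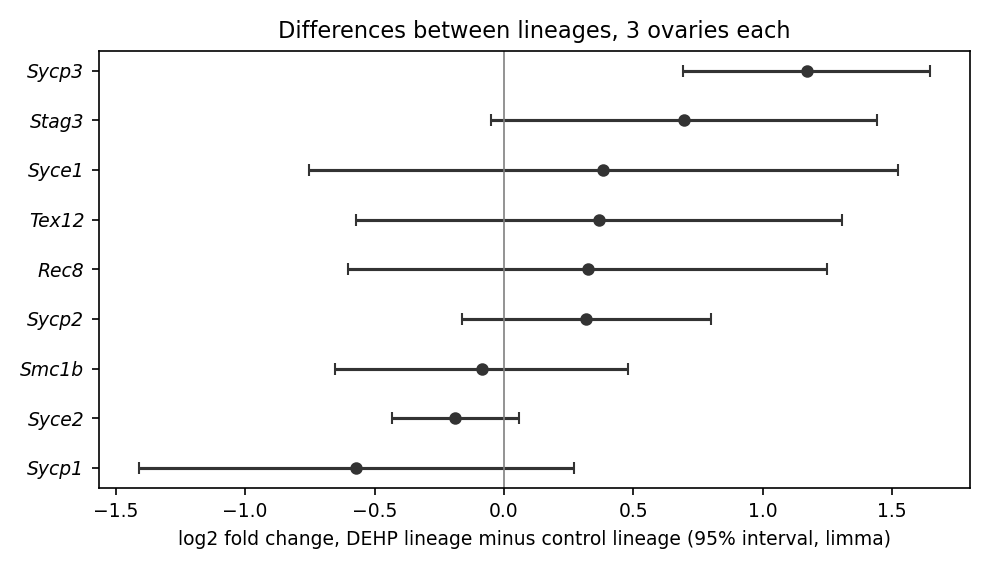
Log2 fold change of each measured member, DEHP lineage minus control lineage (x axis), with 95% intervals from limma (3 ovaries per lineage). The interval of Sycp3, 0.69 to 1.65, lies above 0, and those of the other members span 0.

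Among the cohesin subunits, Stag3, the meiotic form of the STAG subunit, had the largest difference (chromosome 5, 138280240 to 138312393 in GENCODE). It was at 1.64, 1.00 and 1.97 log2 CPM in control replicates 1 to 3 and at 1.95, 2.63 and 2.12 in DEHP replicates 1 to 3. The lineages met at one pair, since DEHP replicate 1 lay just below control replicate 3. The difference was 0.70 (SE 0.32; 95% interval -0.05 to 1.44), a 1.62-fold higher level, with a limma adjusted p of 0.58. The authors' deposited table lists 0.67, with an adjusted p of 0.836. It was 0.43 without control replicate 2 and 0.91 without control replicate 3, the lowest and highest over the alternatives.

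The annotated start of Stag3 lies 235 bases from that of Gpc2, a glypican gene of the cell surface that is transcribed in the other direction. A further gene model that starts there, Gm43720, was not measured, nor were 5 pseudogenes that overlap Sycp1, Syce1 or Smc1b on the opposite strand. Gpc2 was at 3.52, 3.51 and 3.53 log2 CPM in control replicates 1 to 3 and at 4.29, 4.97 and 4.43 in DEHP replicates 1 to 3. The lineages did not overlap for Gpc2, and within the DEHP lineage both genes were highest in replicate 2, then 3, then 1. The removed direction weighs most on DEHP replicates 1 and 3 and limits the orders these ovaries can take. The shared order is therefore no result about the pair. In GENCODE their exons share 0 bases, but RefSeq begins Stag3 at 138272514, so that its span covers Gpc2 on the opposite strand and their reads may not be told apart. The difference of Gpc2 was 1.04 (SE 0.19; limma unadjusted p 0.000677, adjusted p 0.227). It was called without DEHP replicate 1 (limma adjusted p 8.13e-06), without DEHP replicate 3 (0.000304) and with the replicate block (0.037). The adjusted p ranged up to 0.397 over the other alternatives. Many more genes over the whole table were called in those alternatives that called Gpc2. With the block, limma's prior degrees of freedom were infinite, so its p does not use the spread of Gpc2 itself. How far the other small adjusted p values reflect that spread was not tested, so these calls are not read as results.

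Rec8, the meiotic kleisin that closes the ring, had the lowest mean of the members, also per length of transcript. In control replicate 2, Tex12 was lower still, at -1.29 log2 CPM. Rec8 was at -1.17, -0.96 and -0.46 log2 CPM in the control ovaries and at -0.16, -1.01 and -0.45 in the DEHP-lineage ovaries. The lineages overlapped, with DEHP replicate 2 below control replicates 2 and 3. The difference was 0.32 (95% interval -0.60 to 1.25; limma adjusted p 0.843). It ran from 0.13 without DEHP replicate 1 to 0.56 without DEHP replicate 2, and was 0.17 without control replicate 1 and 0.52 without control replicate 3.

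Smc1b, the meiotic form of the SMC1 subunit, was at 2.99, 2.36 and 3.23 log2 CPM in the control ovaries and at 2.78, 2.74 and 2.81 in the DEHP-lineage ovaries. The DEHP-lineage ovaries lay within the range of the control ovaries, which spread over 0.87 against 0.07. The difference of -0.09 (95% interval -0.65 to 0.48; limma adjusted p 0.931) turned to 0.10 without control replicate 3 and was -0.34 without control replicate 2. The start of Smc1b lies 114 bases from that of Ribc2, which was not measured. Rec8, Stag3 and Smc1b had differences of both signs, and none of them was called.

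Of the 9 measured members, 0 were called by limma with Benjamini-Hochberg adjustment, where 0.0425% of all genes were called (0.0243% higher and 0.0182% lower). At an unadjusted p under 0.05 there was 1 member, Sycp3, higher in the DEHP lineage, against 8.78% of all genes (4.76% higher and 4.02% lower). By the authors' deposited table, too, 0 members had an adjusted p under 0.05, and Sycp3 was the 1 member with a p-value under 0.05. Sycp3 was also the 1 member with a log2 difference of at least 1 in size, which 2.07% of all genes reached. The lineages did not overlap for 3 members, 2 of them higher (Sycp2 and Sycp3) and 1 lower (Syce2), against 22.9% of all genes (10.8% higher and 12.2% lower). Means were higher in the DEHP lineage for 6 members and lower for 3, with a median difference of 0.32, that of Rec8. Over all genes 46.9% had a positive difference and the median was -0.01.

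The ovaries also differed within a lineage. In control replicate 2, 7 members lay below their own mean over the 6 ovaries, with a median deviation of -0.45, and Syce1 was the farthest below at -1.10. In DEHP replicates 1 and 3, 6 members lay above, with medians of 0.33 and 0.23, whereas DEHP replicate 2 had 2 above and a median of -0.12. The removed direction weighs most on DEHP replicates 1 and 3, so their likeness and the contrast with replicate 2 are not independent of the processing. The summed level of the members ran from 40.3 to 48.9 CPM in the control ovaries and from 44.8 to 49.9 CPM in the DEHP-lineage ovaries, which overlap. Syce2 made the largest part of the sum.

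Levels were compared between genes after division by the length of the merged exons in GENCODE M21, in CPM per kilobase. Syce2 was highest, at 9.75 to 12.5 over the 6 ovaries, followed by Sycp3 at 2.08 to 5.86 and Smc1b at 1.27 to 2.32. Syce2 was separate from all others, while the ranges of Sycp3 and Smc1b overlapped. Syce1, Tex12, Stag3, Sycp2 and Sycp1 followed in that order of their means, all between 0.35 and 1.08, and each overlapped its neighbour in the order. Rec8 came last at 0.151 to 0.305, separate from Sycp1 above it.

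The meiotic cohesin subunits were scarce beside the subunits they replace, which all dividing cells use. Per kilobase, Rec8 was at 0.156% to 0.338% of Rad21 over the 6 ovaries. Stag3 was at 2.48% to 7.87% of Stag1 and at 0.941% to 3.32% of Stag2, and Smc1b was at 3.14% to 5.51% of Smc1a. These shares are those of the whole organ and not of the oocyte. The 5 mitotic core genes themselves had differences between -0.10 and -0.04, with 0 called, and Rad21, Stag2 and Smc3 were at -0.10, -0.10 and -0.06.

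Other genes of meiotic prophase were sparse in these ovaries. Of 10 further axis and synapsis genes 4 were measured, and Hormad1 and Hormad2, which mark unsynapsed axes, were not among them. Rec114 and Iho1 (listed as Ccdc36), partners in break formation, had differences of 1.08 (SE 0.57) and 0.59 (SE 0.40), and the kleisin gene Rad21l one of -0.16 (SE 0.51). Rec114 and Iho1 had mean log2 CPM between -0.55 and 0.57 in the lineages, and the difference of Rec114 was 0.45 without control replicate 2 and that of Iho1 0.23 without control replicate 1. Of 22 recombination genes 16 were measured, without Spo11 and Dmc1, with 7 higher, 9 lower and a median of -0.01. Mnd1 and Psmc3ip, which form one complex, had differences of opposite sign, -0.44 (SE 0.19) and 0.22 (SE 0.14), and the crossover gene Shoc1 (listed as AI481877) one of -0.46 (SE 0.32). By limma 0 genes of either list were called, and 0 had an unadjusted p under 0.05.

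Telomere attachment and meiotic entry gave the same count of 0 called genes, and 0 with an unadjusted p under 0.05 by limma. Of 6 measured genes that tie chromosome ends to the nuclear envelope, 2 were higher and 4 lower. Sun1, the envelope protein, was at -0.11, its partner Kash5 (listed as Ccdc155) at -0.31 and the kinase activator Spdya at 0.40. Of 4 measured genes of meiotic entry, 2 were higher and 2 lower, and Stra8, the retinoic acid target that starts meiosis, was not measured. Dazl, an RNA-binding protein of germ cells, was at 0.16, and the RNA helicase gene Ythdc2 was at 0.14. The summed entry genes were higher without overlap, at 49.4 to 53.1 CPM in the control and 55.3 to 56.6 CPM in the DEHP-lineage ovaries. The lineages did not overlap for Sun1 (lower) and for Spdya, Cdk2 and Dazl (higher), 4 of the 10 genes, against 22.9% of all genes.

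Genes that act on cohesin and on the later divisions had mostly negative differences. Over all genes 46.9% had a positive difference, and 4.02% were lower and 4.76% higher at an unadjusted p under 0.05. Of 14 genes of cohesin loading, release and protection, 10 were lower, 4 of them at an unadjusted p under 0.05, and 4 were higher, 1 of them at that level. The cohesin stabilizer Cdca5 was at -0.28, the acetyltransferase Esco2 at -0.21 and the centromeric protector Sgo2a at -0.28. Of 14 measured genes of meiotic arrest and resumption, 12 were lower, 4 of them at an unadjusted p under 0.05 by limma. Bub1b, Cdk1 and Plk1, kinases of the division, were at -0.30, -0.27 and -0.26. The summed genes of arrest and resumption were lower without overlap, as 12.2% of single genes were. Their sums were 889 to 1057 CPM in the control and 805 to 848 CPM in the DEHP-lineage ovaries. By limma 0 genes of either list were called, and these genes also act in dividing somatic cells. Their medians were -0.13 and -0.21, against 0.32 for the members.

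**Figure D4:**
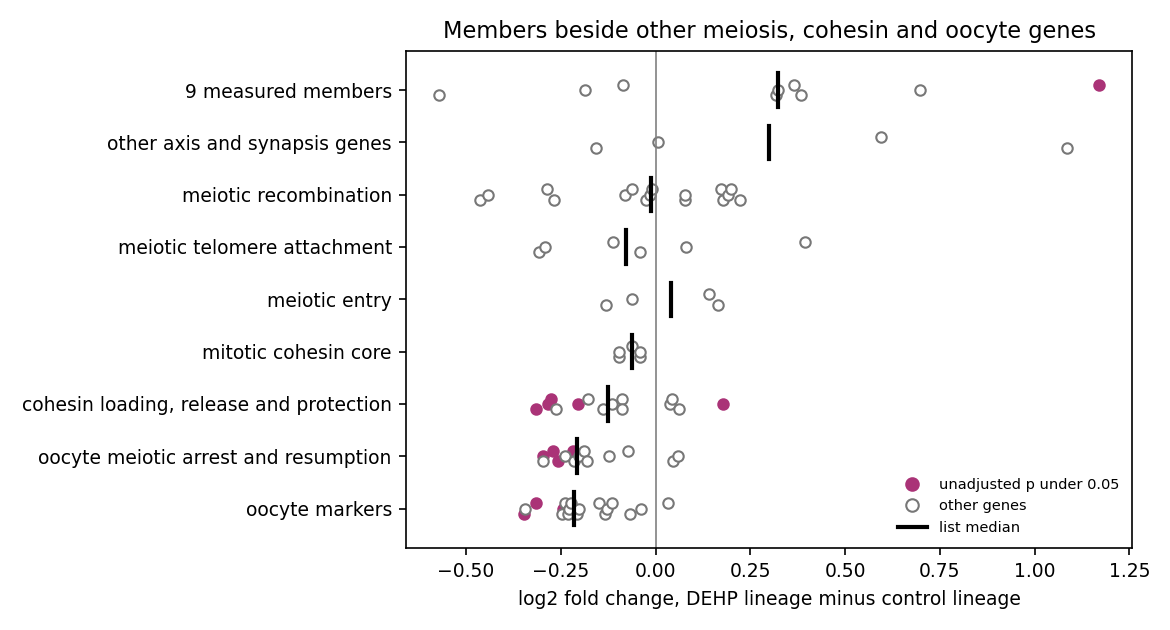
Log2 fold change (x axis) of each measured gene in 9 lists, DEHP lineage minus control lineage. Filled points have an unadjusted p under 0.05 by limma and thick lines are list medians; Sycp3, at 1.17, is the farthest right, and the oocyte markers lie mostly left of 0.

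Oocyte markers had negative differences in 17 of 18, with a median of -0.21, while Sycp3 was higher. Their summed level was 1561 to 1974 CPM in the control ovaries and 1451 to 1622 CPM in the DEHP-lineage ovaries, which overlap. Bmp15 and Gdf9, the oocyte growth factors, were at -0.35 (SE 0.07) and -0.31 (SE 0.11), and the oocyte linker histone gene H1foo was at -0.24 (SE 0.08). By limma 0 of the markers were called, 3 had an unadjusted p under 0.05, and Padi6 was not measured. Their part in the differences of the members was not tested.

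Scaled to 1000 CPM of the oocyte markers of the same ovary, every difference moved up by 0.22 on the log2 scale. Sycp3 then lay between 1.34 and 1.92 CPM in the control ovaries and between 3.88 and 4.57 CPM in the DEHP-lineage ovaries. Sycp2 was at 1.72 to 2.30 against 2.53 to 3.01, and Stag3 at 1.28 to 1.99 against 2.39 to 4.27. With Tex12, at 0.263 to 0.445 against 0.45 to 0.565, 4 members were higher with no overlap on this scale and 0 were lower. Over all genes 23.4% did not overlap on it, 22.2% higher and 1.25% lower, so the scale itself raises the count of higher genes. Syce2 overlapped on it, at 12.1 to 14.6 against 13.2 to 13.6. The scale was chosen after the values were seen and is given as a description.

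**Figure D5:**
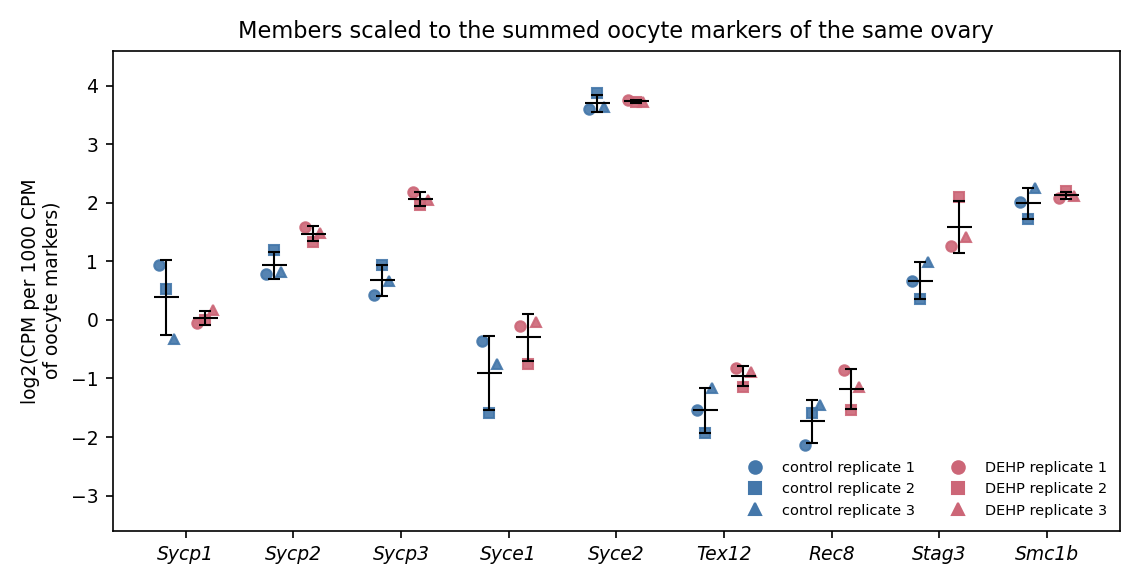
Members on the scale of the oocyte markers: log2 of CPM per 1000 CPM of summed oocyte markers in the same ovary (y axis), for each measured member (x axis). Points are ovaries by lineage and replicate, and bars are means ± SD (n = 3 each); Sycp3, Sycp2, Stag3 and Tex12 separate the lineages on this scale, as 22.2% of all genes do in that direction.

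In the lists of other cell types 0 markers were called by limma. The summed markers of 3 of these lists did not overlap and were lower in the DEHP lineage. Of single genes 22.9% did not overlap, 12.2% of them all being lower. The 3 lists were smooth muscle (1861 to 2074 CPM against 1464 to 1720), stromal fibroblasts (4662 to 5343 against 4405 to 4558) and theca and interstitial cells (2821 to 3505 against 2623 to 2715). Single markers were lower in 6 of 6 for smooth muscle, 4 of 8 for fibroblasts and 8 of 8 for theca cells, and 4, 1 and 0 of these had an unadjusted p under 0.05. Fibroblast markers without overlap were 2 lower (Col3a1 and Col1a2) and 2 higher (Tcf21 and Nr2f2). Tcf21, at 0.40, had the smallest unadjusted p of that list (0.00747 by limma). The sums weigh abundant genes most, Col3a1 for fibroblasts and Hsd3b1 for theca cells, so they do not describe all markers of a list. The summed markers of granulosa cells, which make up most of a young follicle, overlapped at 7294 to 8754 against 8654 to 9659 CPM. Erythroid markers were higher in 5 of 5, with a median of 0.84 and sums of 65.6 to 127 against 115 to 290 CPM, which overlap. Of these, 2 had an unadjusted p under 0.05 by limma, Hba-a1 (1.51) and Hbb-bs (0.84), which encode globin chains. By limma Hba-a1 was called without DEHP replicate 1 (adjusted p 4.16e-12), 2 (0.0368) or 3 (6.69e-17) and with the replicate block (1.04e-12). Hbb-bs was called without DEHP replicate 1 (0.000773) or 3 (8.08e-05) and with the block (0.00426). With all 6 ovaries the limma adjusted p of both was 0.491, and the lineages overlapped for both genes. More genes over the whole table were called in those alternatives too. With the block, limma's prior degrees of freedom were infinite, so its p does not use the spread of the single gene. How far the other adjusted p values reflect that spread was not tested. The summed oviduct markers overlapped (17.5 to 25.1 against 22.6 to 37.3 CPM), with 5 of 6 higher and no overlap for the epithelial gene Epcam (0.58) and the oviduct glycoprotein gene Ovgp1 (0.61). The blood endothelium markers overlapped in sum (272 to 309 against 243 to 285 CPM), with 4 of 5 lower and no overlap for the receptor gene Kdr (-0.29). The single genes of this paragraph, like Cdk2 above, were named after their values were seen. Macrophage and adipocyte sums overlapped, and in all these lists 0 genes were called on the values as deposited, with all 6 ovaries and 3 residual degrees of freedom. The part of any of these lists in the differences of the members was not tested.

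The genes whose values over the 6 ovaries were most like those of Sycp3, among 13063 genes with a mean log2 CPM of at least 1, were Stxbp5 (Pearson r 0.997), Prkcd (0.996) and Hmox1 (0.995). They encode a syntaxin-binding protein, protein kinase C delta and heme oxygenase. Their own differences were 0.20, 0.49 and 0.42, smaller than that of Sycp3, and 82 genes reached an r of at least 0.95. For Syce2, the member with the highest level, they were the mitochondrial ribosomal gene Mrps35 (1.00), Rpp25, of ribonuclease P (0.998), and Dtwd2, a transfer RNA modification gene (0.997), with 187 genes at 0.95 or above. These correlations describe 6 points that share the removed surrogate direction and a split into 2 lineages.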

How the data were processed

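The labels assigned 3 whole ovaries to each lineage, by sample title. The authors deposited log2 CPM per ovary with a surrogate variable removed, per the file headers and the table's name, together with columns of log2 fold change, of p-value (raw and adjusted) and of a signed fold change treated here as a score. Per the submitters' processing notes the tools included Trimmomatic 0.36, STAR 2.5.3a, Subread 1.5.2 and edgeR 3.20.5, and the build was GRCm38.p6; their settings, strand use and prior count are not known here.

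Deviations from the group means filled 3 directions in place of 4, so limma 3.58.1 in R 4.3.3, with a mean-variance trend, was run with 3 residual degrees of freedom, two-sided, on the deposited values with no filter. The script was tested on simulated data. Without counts, the depth of each library is unknown. Low genes depend on the prior count.

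The members and gene lists were chosen with earlier results of these data known. Named were all members, up to 3 genes per list with the smallest p, neighbours that overlap or start within 1000 bases head to head, and the 3 genes most alike to the member with the smallest p and to the highest member. The lineages' replicate numbers were checked for pairing. Alternatives, 15 in all, covered degrees of freedom, replicate block, scaling, filters, pseudocount, trend, and leaving out or averaging ovaries. Positions, exon overlaps and shared words are from GENCODE M21 (GRCm38), and promoter windows from RefSeq (GRCm38.p6).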

Additional observations from a re-analysis of the deposited data

How the results depend on the processing

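Under all 15 alternatives 0 members were called by limma, and the difference of Sycp3 stayed between 0.95 and 1.28 with an unadjusted p under 0.05 in all 15; its adjusted p ran from 0.065 to 0.885. The number of genes called over the whole table, 7 as reported, was 20 with 4 residual degrees of freedom, 83 with the replicate block, 3 with quantile normalization and 1 without the mean-variance trend. It ranged from 3 to 270 when 1 ovary was left out, with 2 residual degrees of freedom: 270 without DEHP replicate 1, 183 without DEHP replicate 3, 43 without DEHP replicate 2, 27 without control replicate 1 and 3 without control replicate 2. The cause was not tested. With the block, limma's estimate of the prior degrees of freedom was infinite, so its p values do not use the spread of single genes. Same-numbered ovaries had correlations of deviations of -0.33, -0.003 and -0.20, so the replicate block rests on shared numbers only; it called 0 members. Members without overlap numbered 3 to 5 when 1 ovary was left out, 5 without control replicate 3, and 2 (1 higher, 1 lower) with quantile normalization, against 3 (2 higher, 1 lower) as reported. Leaving out an ovary can only raise such counts, for members and all genes alike. The share of all genes without overlap was not computed under these settings, so the counts are no result about the members. Signs turned for Syce1 without control replicate 2 (-0.0723; range with 1 ovary left out -0.0723 to 0.709), for Smc1b without control replicate 3 (0.0987; -0.335 to 0.0987), for Rad21l without control replicate 3 (0.235) and without DEHP replicate 1 (0.0392; -0.508 to 0.235), and for Chpt1 with quantile normalization (0.0157), with median centring (0.00751), with DEHP replicates 1 and 3 averaged (0.0413), without control replicate 1 (0.0486), and without DEHP replicate 1 (0.0669) or 3 (0.0156; -0.0905 to 0.0669). The causes of these turns were not tested. Rec8 and Tex12 did not pass a floor of a mean log2 CPM of 0, and Sycp1 and Syce1 did not pass one of 1 either. Depth limits the low members most, but it is not known.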
